A study of Mus musculus with 6 samples.

Results

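The interferon response genes are a set of 48 mouse genes that carry, control or carry out the response to interferons. Members were taken as the rows of the authors' deposited gene table whose Entrez identifier is on the list, and 46 of the 48 have such a row, out of 19267 genes in that table. All 46 were well above background on all 6 arrays and were tested among 16663 genes.

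The cells came from transgenic mice in which the promoter of smooth muscle actin (SMA, gene Acta2) drives green fluorescent protein (GFP). Both groups were sorted as negative for CD45, a surface protein of blood-derived cells, and for CD31, a surface protein of endothelium. The skin group (SMA-GFP+, labelled fibroblast-like cells) had low reporter signal and came from dermis. The wound group (SMA-GFP+++, labelled myofibroblast) had high reporter signal and came from wounds at day 7 after injury. Each group has 3 arrays, 2 on array design 026655 (replicates 1 and 2) and 1 on design 028005, which the labels leave unnumbered and which is called replicate 3. A pair below is a skin and a wound array with the same replicate number. The numbers are not shown to pair samples, so agreement among pairs is a description and no test. Reporter level and injury changed together and cannot be told apart. The labels do not say whether the arrays hold RNA of separate animals, nor give an age or strain, so the p-values reflect the spread among these arrays alone, and that spread could be technical.

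Interferons are secreted proteins that alert cells to viruses and to immune activity. Type I interferons bind the receptor chains IFNAR1 and IFNAR2, and interferon gamma binds IFNGR1 and IFNGR2. Janus kinases at these receptors activate STAT proteins. After type I interferon a complex that contains STAT2 and IRF9 binds the interferon-stimulated response element (ISRE), while the interferon gamma route acts through the gamma-activated site (GAS). The genes switched on in this way block viral replication, sense foreign nucleic acids, attack vacuoles that hold microbes and prepare peptides for presentation to T cells. Fibroblasts of connective tissue carry these receptors and can mount the response.

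The promoters of the members carry the binding motifs of both routes more often than promoters in general, as a share with no test. RefSeq promoter windows on GRCm38.p6, from 250 bases before to 50 after the transcription start, were at hand for 36 of the 46 members. The core of the ISRE, a repeated half-site with a short spacer, was searched on both strands and was found in 16 of 36 members (44.4%), against 3.99% of 27025 genes with such a window. The GAS, a palindrome with a short spacer that reads the same on both strands, was found in 12 of 36 members (33.3%), against 9.55% of all. Matches may overlap one another, and the capitals in the stretches that follow show the letters matched. By direction of change, the ISRE letters were in 7 of 12 members that were higher in wound cells (58.3%), in 4 of 9 that were lower (44.4%) and in 5 of 15 that did not pass the test (33.3%), and the GAS letters were in 33.3% of each. Among the members with the largest differences, Ifi44, Oasl1 and Ifngr1 had a window that held neither motif. A match is a description of letters and no measured binding site.

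The stretches below lie upstream of the start of 6 called members, chosen among those with a match. Oas1a, Isg15 and Rsad2 were higher in wound cells, and Gbp2, Igtp and Irf1 were lower. All but Irf1 are shown because genes with a match of the ISRE core went in opposite directions. Irf1 had a GAS match and no ISRE match. Each stretch is written 5′ to 3′ on the strand of the gene, and the capitals mark 1 match of the ISRE or, for Irf1, of the GAS. The positions on GRCm38.p6 are chr5:120907526-120907564 (minus strand) for Oas1a, chr4:156200856-156200915 (minus strand) for Isg15, chr12:26456538-26456597 (minus strand) for Rsad2, chr3:142620579-142620638 (plus strand) for Gbp2, chr11:58199497-58199555 (plus strand) for Igtp and chr11:53769899-53769957 (plus strand) for Irf1.
Oas1a: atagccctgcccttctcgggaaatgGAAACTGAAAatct
Isg15: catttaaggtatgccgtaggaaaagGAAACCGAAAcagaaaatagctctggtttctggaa
Rsad2: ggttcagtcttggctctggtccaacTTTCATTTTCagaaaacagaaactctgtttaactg
Gbp2: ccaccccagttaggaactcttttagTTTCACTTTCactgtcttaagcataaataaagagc
Igtp: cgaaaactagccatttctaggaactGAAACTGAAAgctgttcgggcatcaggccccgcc
Irf1: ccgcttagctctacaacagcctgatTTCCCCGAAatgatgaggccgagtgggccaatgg

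The comparison asks how the genes that receive, control and carry out the interferon response differ between high-reporter wound cells and low-reporter skin cells. Wound cells had more RNA of 13 of the 46 members and less of 11, and 22 did not pass the test. The increases were led by the 2′-5′-oligoadenylate synthetase gene Oas1a, Ifi44, the synthetase-like gene Oasl1 and Rsad2. The decreases were led by the guanylate-binding protein Gbp2, the transcription factor Irf1 and the receptor chain Ifngr1. Calls come from limma with a term for the array design, at a p under 0.05 after Benjamini-Hochberg adjustment over all genes tested. Across all genes 34.1% were called, 18.5% higher and 15.5% lower in wound cells, against 52.2% of the members, 28.3% higher and 23.9% lower. Among the genes that were, like all members, well above background on all 6 arrays, the background was 31.5%, with 17.8% higher and 13.8% lower.

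The list as a whole had no common direction. The median difference of the 46 members was 0.03 on the log2 scale, against 0.05 over all genes, while the median of the sizes without sign was 0.72 against 0.42. A difference of 1 or more in log2, which is 2-fold, was reached by 30.4% of members and 21.5% of all genes, in 7 members called higher and 7 called lower. On design 026655, the 2 wound arrays lay above both skin arrays in 19 members (41.3%, against 38.0% of all genes) and below both in 13 (28.3%, against 30.1%), shares close to the background. The counts depend on single arrays. Without skin replicate 1, 2 or 3 the members called higher numbered 8, 7 and 9, and without wound replicate 1, 2 or 3 they numbered 7, 9 and 9. Members called lower numbered 7 without skin replicate 1, with 8 to 12 without any other array. In the authors' deposited table the split was 10 higher and 14 lower.

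**Figure D1:**
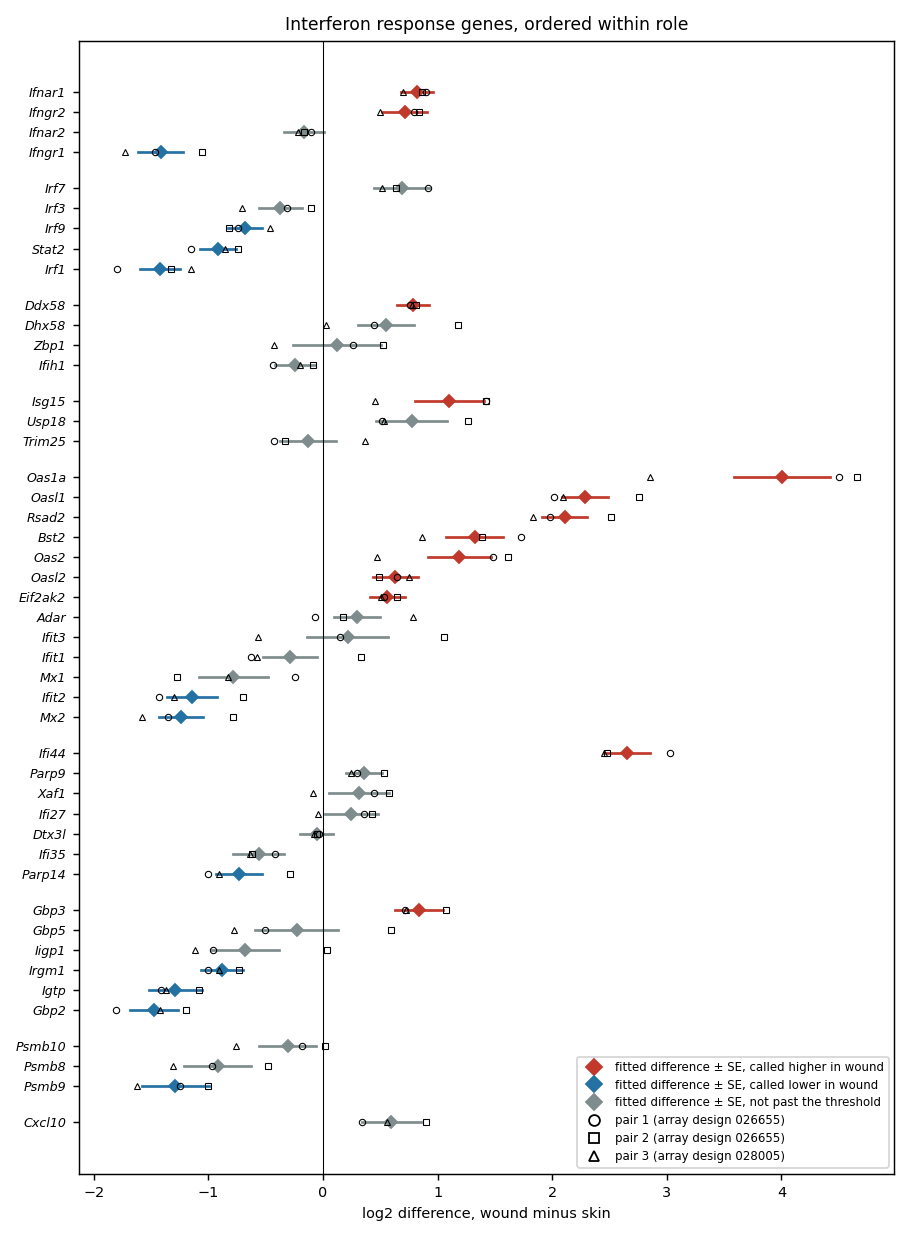
Log2 difference of wound minus skin for each of the 46 members, grouped by role and ordered within role. Diamonds with bars are the fitted difference with its SE, and open circles, squares and triangles are the differences within pairs 1, 2 and 3 of arrays. Values run from -1.48 for Gbp2 to 4.01 for Oas1a, with 13 members called higher and 11 lower.

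Values below are log2 signals relative to the 75th percentile of the same array. On most members the arrays of design 028005 (replicate 3) read higher than those of design 026655 in both groups. Levels are therefore set side by side within a design, and only the difference between wound and skin is carried across designs. Design 028005 holds 1 array of each group, which cannot overlap. Where groups are said to lie apart within each design, that design adds only the sign of the difference. In these bulk samples fewer cells of a type and less RNA per cell cannot be told apart.

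The receptor chains moved apart. Wound cells had more Ifnar1 and Ifngr2 and less Ifngr1, while Ifnar2 did not pass the test. Ifngr1 (Entrez 15979), the chain that binds interferon gamma, read 3.55, 3.07 and 4.84 on the skin arrays of replicates 1, 2 and 3, and 2.08, 2.02 and 3.12 on the wound arrays in that order. Every wound array lay below the skin arrays of its design, and the gene was 2.67-fold lower (log2 -1.41, SE 0.20, limma adjusted p = 0.00258). Its partner Ifngr2 (Entrez 15980), the signalling chain, went the other way, with 1.42, 1.01 and 1.84 on the skin arrays and 2.22, 1.85 and 2.34 on the wound arrays. The groups did not overlap within a design, and the difference was 0.71 in log2 (SE 0.20, limma adjusted p = 0.0336), but the call was lost without any 1 of the 6 arrays (adjusted p from 0.0549 to 0.104).

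For the type I receptor, Ifnar1 (Entrez 15975) read 0.17, 0.18 and 1.43 on the skin arrays and 1.07, 1.04 and 2.13 on the wound arrays. Wound cells had 1.76-fold more of it (log2 0.82, SE 0.14, limma adjusted p = 0.00589), with both wound arrays of design 026655 above both skin arrays. That is the brightest of 3 probes, and the other probes gave smaller differences of 0.43 and 0.42 that did not pass the test in a fit over probes (adjusted p = 0.103 and 0.114). Ifnar2 (Entrez 15976), the other chain, read 2.06, 1.77 and 3.1 in skin and 1.96, 1.60 and 2.88 in wound (log2 -0.16, SE 0.17, limma adjusted p = 0.507). Its groups overlapped on design 026655. In the RefSeq annotation of GRCm38.p6, Ifnar2, Il10rb, Ifnar1 and Ifngr2 follow each other with no protein-coding gene between them. Il10rb, the receptor chain shared by interleukin 10 and interferon lambda, was also called higher.

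Among the transcription factors, 3 of 5 tested were lower in wound cells and the other two did not pass the test. Irf1 (Entrez 16362), which is induced by interferon gamma and by inflammatory signals and switches on many genes of this list, read 6.13, 5.92 and 7.14 on the skin arrays and 4.33, 4.59 and 5.98 on the wound arrays. It was 2.68-fold lower (log2 -1.42, SE 0.17, limma adjusted p = 0.00151), and its other probe gave -1.41. Stat2 (Entrez 20847), which carries the type I signal to the nucleus, read 2.80, 2.72 and 3.30 in skin and 1.65, 1.98 and 2.45 in wound. That is 1.89-fold lower (log2 -0.91, SE 0.16, limma adjusted p = 0.00603). For both genes the groups lay apart within each design.

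Irf9 (Entrez 16391), which gives the STAT complex its DNA contact, read 2.44, 2.45 and 3.25 in skin and 1.69, 1.63 and 2.78 in wound. Its log2 difference was -0.68 (SE 0.15, limma adjusted p = 0.0157), and the call was lost without skin replicate 1 or 2 or wound replicate 1 (adjusted p = 0.08, 0.0558 and 0.053). Irf7 (Entrez 54123), the factor that amplifies type I interferon production, read -1.23, -1.68 and -0.39 in skin and -0.32, -1.04 and 0.12 in wound, higher in each of the 3 pairs (log2 0.69, SE 0.24, limma adjusted p = 0.0739). Irf3 (Entrez 54131), which starts interferon production after viral sensing, read 2.54, 2.19 and 3.96 in skin and 2.23, 2.09 and 3.25 in wound (log2 -0.37, SE 0.19, limma adjusted p = 0.176). Neither of the last genes passed the test. The sixth factor on the list, Irf8, had no row in the deposited table and was named here by the accession of its probe. Irf8 read -0.54, -0.55 and 0.24 in skin and -0.45 and -0.37 on wound replicates 1 and 2, and its spot on wound replicate 3 carried an outlier mark and was left out, so it was not tested.

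Of the nucleic acid sensors, Ddx58, which encodes RIG-I, a sensor of viral RNA, was called higher, and the other members did not pass the test. Ddx58 (Entrez 230073) read 1.08, 0.97 and 1.77 on the skin arrays and 1.84, 1.78 and 2.55 on the wound arrays. The wound arrays were higher by nearly the same amount in each pair (0.76, 0.81 and 0.78), for a difference of 0.78 (SE 0.14, limma adjusted p = 0.00683). A less bright probe of the gene gave 0.22 and did not pass (adjusted p = 0.345 over probes), and the authors' deposited table gave 0.44 (adjusted p = 0.0681 in the same limma model). Ifih1, which encodes the RNA sensor MDA5, had a difference of -0.24 (adjusted p = 0.327). Dhx58, the regulator of both, had 0.55 (adjusted p = 0.139), and Zbp1, a sensor of Z-form nucleic acids, had 0.12 (adjusted p = 0.831).

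Isg15 (Entrez 100038882) encodes a ubiquitin-like protein that is attached to other proteins after interferon exposure. It read 2.96, 2.36 and 4.54 in skin and 4.39, 3.79 and 4.99 in wound. The groups lay apart within each design, but the gap was 1.43 and 1.42 on design 026655 and 0.45 on design 028005. The fitted difference was 1.10 (2.15-fold, SE 0.30, limma adjusted p = 0.0328), and a second probe gave 1.05. The call was lost without skin replicate 1 or 2 or wound replicate 1 or 2 (adjusted p = 0.0722, 0.0868, 0.0907 and 0.068). Usp18, the protease that removes ISG15, was higher in 3 of 3 pairs without passing the test (log2 0.77, SE 0.31, adjusted p = 0.104). Trim25, the ubiquitin ligase that acts on RIG-I, had a difference of -0.13 (adjusted p = 0.72) and was measured by different probes on the 2 designs. Followed on both designs, its probes had opposite signs, -0.25 and 0.58. Neither passed the limma fit over probes (adjusted p = 0.445 and 0.0635).

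The antiviral effectors held most of the increases. Of 13 tested members of the Ifit, Mx and Oas families and other antiviral proteins, 7 were higher and 2 lower in wound cells. These are 53.8% and 15.4%, against 18.5% and 15.5% of all genes tested. The median difference was 0.56. Oas1a (Entrez 246730) encodes a synthetase that makes 2′-5′-linked adenylate chains from double-stranded RNA as a signal for RNA decay. It read -1.67, -2.43 and 0.52 on the skin arrays and 2.83, 2.24 and 3.37 on the wound arrays. All 3 wound arrays lay above all 3 skin arrays, whichever the design, and the gene was 16.1-fold higher (log2 4.01, SE 0.42, limma adjusted p = 0.000833). The gap was 4.51 and 4.66 in pairs 1 and 2 and 2.85 in pair 3. Its other probe gave 4.00. Oas1a has near-identical paralogs such as Oas1g, and which copy the probes read is uncertain.

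The related genes Oasl1, Oas2 and Oasl2 were also called higher. Oasl1 (Entrez 231655), an oligoadenylate synthetase-like protein, read -1.52, -2.08 and -0.52 in skin and 0.50, 0.68 and 1.57 in wound. No wound array overlapped a skin array, and the difference was 4.89-fold (log2 2.29, SE 0.20, limma adjusted p = 0.000439). Oas2 (Entrez 246728) read -2.07, -2.50 and -0.10 in skin and -0.58, -0.88 and 0.37 in wound, with gaps of 1.48 and 1.62 on design 026655 and 0.47 on design 028005. It was 2.28-fold higher (log2 1.19, SE 0.27, limma adjusted p = 0.0183) and lost the call without skin replicate 1 or 2 or wound replicate 1 or 2 (adjusted p = 0.0555, 0.0519, 0.0638 and 0.0572). Oasl2 lay next to the threshold (log2 0.63, SE 0.20, limma adjusted p = 0.05) and kept its call in 4 of 17 alternative settings, losing it without skin replicate 1, 2 or 3 or wound replicate 1 or 3 (adjusted p from 0.0794 to 0.159). Oasl2 and Oasl1 are neighbours in the RefSeq annotation, as are Oas2 and Oas3. Oas3 had no row in the deposited table, and the probe that its accession names was not well above background on any of the 6 arrays.

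Ifi44 and Rsad2 were dim genes in skin cells that rose in every pair. Ifi44 (Entrez 99899), an interferon-inducible cytoplasmic protein, read -4.45, -4.49 and -3.13 in skin and -1.42, -2.01 and -0.68 in wound. It was 6.28-fold higher (log2 2.65, SE 0.20, limma adjusted p = 0.000277), with no overlap between the groups. Under normexp background correction, which adds an offset to each signal, the differences were smaller for dim genes, 1.52 for Ifi44 and 1.51 for Rsad2. Rsad2 (Entrez 58185), which encodes viperin, an enzyme that makes a chain-terminating nucleotide, read -2.99, -3.50 and -2.15 in skin and -1.0, -0.989 and -0.313 in wound. It was 4.32-fold higher (log2 2.11, SE 0.20, limma adjusted p = 0.000538), and these groups did not overlap either. Bst2 (Entrez 69550) encodes tetherin, which holds budding virus at the cell surface. It read 2.16, 1.86 and 3.58 in skin and 3.89, 3.25 and 4.44 in wound (2.51-fold higher, log2 1.33, SE 0.25, limma adjusted p = 0.00861), apart within each design.

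Eif2ak2 encodes PKR, a kinase that stops translation in infected cells. It had a difference of 0.56 (SE 0.15, limma adjusted p = 0.0329), and the call was lost without any 1 of the 6 arrays (adjusted p from 0.0578 to 0.106). Adar, the enzyme that edits adenosine in double-stranded RNA, did not pass (log2 0.30, adjusted p = 0.304) and was measured by different probes on the 2 designs. Its probes gave 0.15 and 0.73 when each was followed on both designs, and the second passed the test (adjusted p = 0.0393 over probes).

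Other effectors of the same families fell or did not pass. Ifit2 (Entrez 15958), which binds viral RNA, read -0.996, -1.71 and -0.54 in skin and -2.42, -2.41 and -1.84 in wound. Each wound array lay below the skin arrays of its design, and the gene was 2.21-fold lower (log2 -1.14, SE 0.22, limma adjusted p = 0.00935). Its neighbour in the annotation, Ifit3, had a difference of 0.21 (adjusted p = 0.677) and Ifit1 had -0.29 (adjusted p = 0.382), each with different signs among the 3 pairs. Mx2 (Entrez 17858), a dynamin-like GTPase that blocks viruses, read 0.14, -0.21 and 1.48 in skin and -1.21, -0.99 and -0.10 in wound, 2.35-fold lower (log2 -1.24, SE 0.19, limma adjusted p = 0.004). Mx1 was lower in 3 of 3 pairs (log2 -0.78, SE 0.30, adjusted p = 0.0971) and passed only without wound replicate 1 (log2 -1.12, adjusted p = 0.0163).

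**Figure D2:**
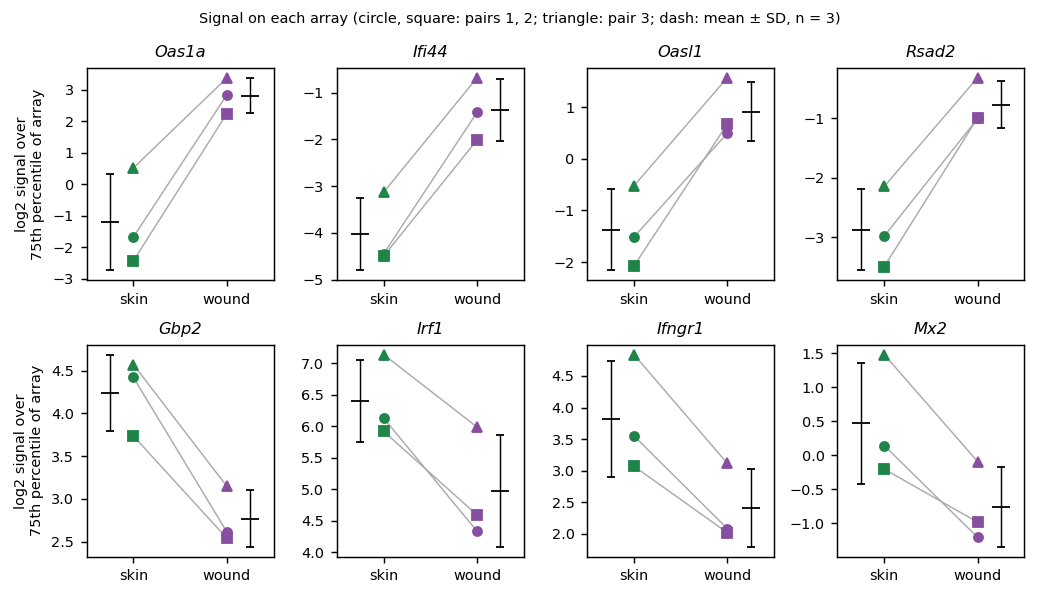
Log2 signal relative to the array's 75th percentile on each skin and wound array for 8 members, with lines joining the arrays of a pair and dashes for the mean ± SD of 3 arrays. Oas1a, Ifi44, Oasl1 and Rsad2 rise along every line and Gbp2, Irf1, Ifngr1 and Mx2 fall along every line, while the triangles of design 028005 sit above the other symbols of their group.

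Of the other interferon-inducible proteins, a group of 7 that contains Ifi44, Parp14 was the member that fell. Parp14 (Entrez 547253), an ADP-ribosyltransferase, read 2.75, 2.17 and 3.28 in skin and 1.75, 1.89 and 2.38 in wound (log2 -0.73, SE 0.20, limma adjusted p = 0.0326). The call was lost without any 1 array other than skin replicate 2 (adjusted p from 0.0574 to 0.129). Parp14, Dtx3l and Parp9 stand side by side in the RefSeq annotation. Parp9 and Dtx3l encode proteins that work as a complex, and they had differences of 0.36 (adjusted p = 0.135) and -0.05 (adjusted p = 0.801). The less bright probes of Dtx3l gave -0.65 and -0.82, of which the second passed (adjusted p = 0.0455 over probes). Ifi35 had a difference of -0.56 (adjusted p = 0.103) and Ifi27 of 0.25 (adjusted p = 0.446). Xaf1, a pro-apoptotic protein, had 0.31 (adjusted p = 0.396) at its brightest probe and -0.56 at the other, which passed (adjusted p = 0.0436 over probes).

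The interferon-inducible GTPases, which attack the vacuoles of intracellular microbes and respond mainly to interferon gamma, were lower more often than higher. Of 6 members 3 fell (50.0%, against 15.5% of all genes), 1 rose (16.7%, against 18.5%) and 2 did not pass. The median difference was -0.78. Gbp2 (Entrez 14469), a guanylate-binding protein, read 4.42, 3.74 and 4.57 in skin and 2.61, 2.54 and 3.15 in wound. All wound arrays lay below all skin arrays, and the gene was 2.78-fold lower (log2 -1.48, SE 0.21, limma adjusted p = 0.00281). Igtp (Entrez 16145), an immunity-related GTPase also called Irgm3, read 3.1, 2.40 and 3.89 in skin and 1.69, 1.32 and 2.52 in wound (2.44-fold lower, log2 -1.29, SE 0.23, limma adjusted p = 0.00714). Irgm1 (Entrez 15944), a regulator of the same family, read 3.04, 2.54 and 4.20 in skin and 2.04, 1.81 and 3.29 in wound. It was 1.84-fold lower (log2 -0.88, SE 0.19, limma adjusted p = 0.0136), its other probe gave -1.07, and the call was lost without skin replicate 1 or 3 or wound replicate 3 (adjusted p = 0.0612, 0.0515 and 0.0518).

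Gbp3 (Entrez 55932), 1 protein-coding gene away from Gbp2 in the annotation, went the other way. It read 1.67, 1.06 and 2.34 in skin and 2.39, 2.13 and 3.06 in wound. The groups lay apart within each design, for a 1.79-fold increase (log2 0.84, SE 0.21, limma adjusted p = 0.0234) that lost its call without skin replicate 2 or 3 or wound replicate 1 or 3 (adjusted p = 0.0576, 0.0599, 0.0827 and 0.0602). Gbp5 had a difference of -0.23 (adjusted p = 0.661) with opposite signs among its pairs, while its other probe gave -1.91 and passed (adjusted p = 0.00834 over probes). Gbp5 also passed with the mean of its probes (log2 -1.07, adjusted p = 0.0456), in the authors' deposited table (log2 -1.13, adjusted p = 0.0291) and without wound replicate 2 (log2 -0.67, adjusted p = 0.0366). Iigp1, another immunity-related GTPase, had -0.68 (SE 0.30, adjusted p = 0.13) and passed only without skin replicate 2 (log2 -1.03, adjusted p = 0.0108). All 5 GTPase members with a promoter window held the ISRE letters, Gbp3 as well as Gbp2, Igtp and Irgm1.

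The immunoproteasome subunits replace the standard catalytic subunits of the proteasome after exposure to interferon and change the peptides that it cuts. Psmb9 (Entrez 16912) read 1.59, 0.74 and 2.76 in skin and 0.34, -0.26 and 1.14 in wound, 2.45-fold lower (log2 -1.29, SE 0.29, limma adjusted p = 0.0174). Its groups lay apart within each design, and its call was lost without skin replicate 1 or 3 or wound replicate 2 or 3 (adjusted p = 0.0616, 0.0716, 0.0603 and 0.072). Psmb8 was lower in each pair but just short of the threshold (log2 -0.92, SE 0.29, adjusted p = 0.0534). It passed in 7 of 17 alternatives, among them the replicate block (adjusted p = 0.0251) and without skin replicate 2 (log2 -1.24, adjusted p = 0.0116). Psmb10 had -0.31 (adjusted p = 0.382). The standard subunits that they replace, Psmb6, Psmb5 and Psmb7, had differences of 0.27, 0.52 and 0.43 (adjusted p = 0.313, 0.119 and 0.0801), none past the threshold. The difference in change between the subunit types was not tested. Cxcl10, a chemokine that draws activated T cells, read 4.87, 3.99 and 5.76 in skin and 5.21, 4.89 and 6.32 in wound. It was higher in 3 of 3 pairs but did not pass (log2 0.60, SE 0.26, adjusted p = 0.122).

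Probes of a gene did not always give the same value. Of the 46 members, 29 had 1 probe on both designs and 17 had more, and in 14 of the 17 all probes had the same sign. The mean of all probes is therefore 1 of the alternatives, and it left 12 members higher and 12 lower.

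**Figure D3:**
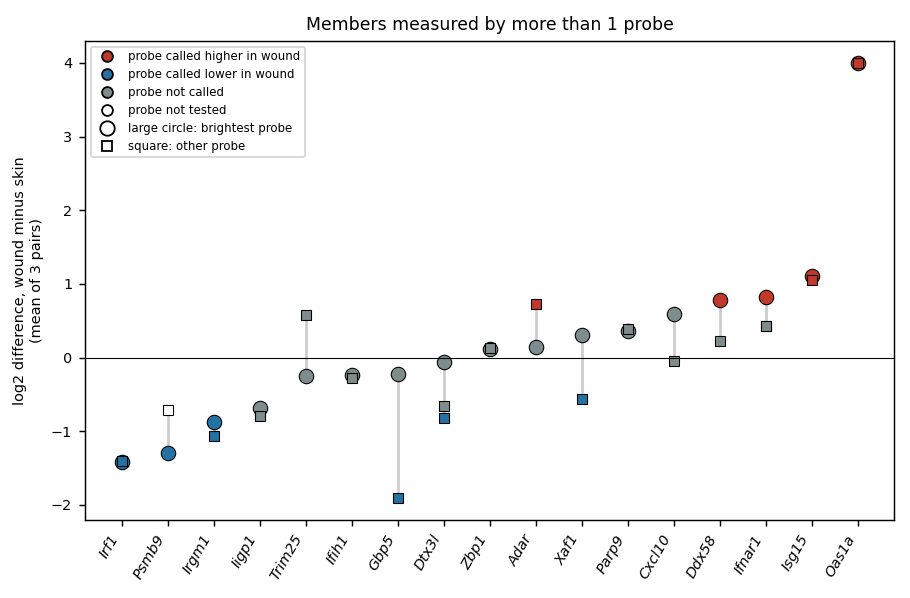
Log2 difference of wound minus skin, as the mean of 3 pairs, for each probe of the 17 members with more than 1 probe. Large circles are the brightest probe and squares the others, coloured by the call of a limma fit over probes. Both probes of Oas1a sit at about the same height (4.01 and 4.00), while those of Gbp5 (-0.23 and -1.91) and Xaf1 (0.31 and -0.56) lie apart.

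The members also differed together between arrays of the same group. On design 026655, skin replicate 2 read lower than skin replicate 1 in 42 of 46 members (91.3%), with a median shift of -0.47 and a range from -1.11 to 0.41. Over all genes tested 52.7% were lower, with a median of -0.02. Wound replicate 2 read lower than wound replicate 1 in 34 of 46 members (73.9%, median -0.14), against 50.4% of all genes. The median shift within the skin group is larger than the signed median difference between the groups (0.03), in which rises and falls cancel. It is smaller than the median size of that difference without sign (0.72). The median SE of the members was 0.21, against 0.19 over all genes. The largest SE of a member was 0.42, for Oas1a, followed by 0.38 for Zbp1. Other genes of the pathway showed the shift too, with 64 of 77 lower on skin replicate 2 (83.1%, median -0.28). What separates these arrays was not tested.

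**Figure D4:**
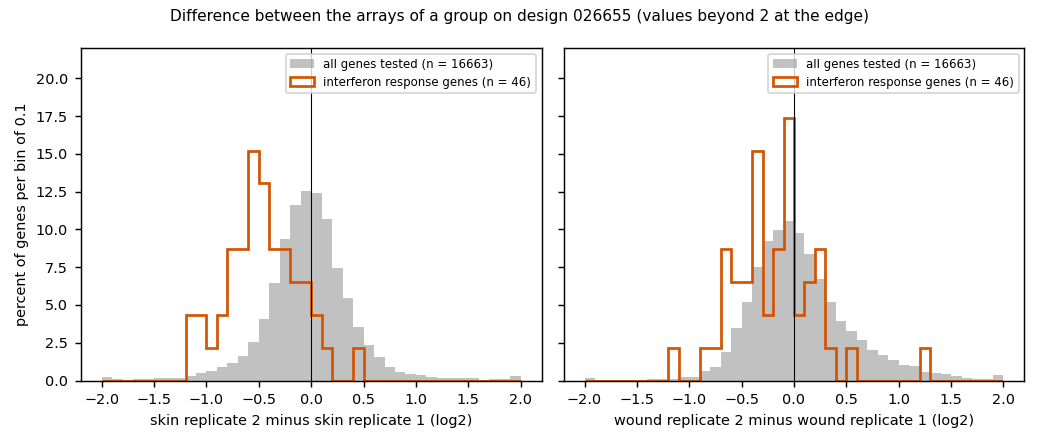
Histograms of the log2 difference between replicate 2 and replicate 1 on design 026655, for skin and for wound arrays, as percent of genes per bin. The 46 members (orange line) lie to the left of all genes tested (grey) among skin arrays, with medians of -0.47 and -0.02, and less so among wound arrays, with a median of -0.14 for the members.

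Beyond the members, 91 other genes of interferon signalling and response were followed, and 77 were tested. Wound cells had more of 9 and less of 14, and 54 did not pass. The called share of 29.9% lies below the 34.1% of all genes, with 11.7% higher against 18.5% and 18.2% lower against 15.5%, and the median difference was -0.05. The count of higher genes fell to 5 without skin replicate 1 and to 4 without wound replicate 1 or 2, and was 6 without skin replicate 2.

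The increases among these genes were led by Slfn2, a schlafen protein of lymphocyte quiescence and antiviral defence (5.18-fold, log2 2.37, SE 0.36, limma adjusted p = 0.00354), and by the T cell chemokine Cxcl9 (3.51-fold, log2 1.81, SE 0.23, limma adjusted p = 0.00182). The galectin ligand Lgals3bp, the antiviral protein Samd9l, the GTPase Tgtp2 and the RNA helicase Mov10 followed with 1.48, 1.35, 1.26 and 0.78, and Tgtp2 and Mov10 lost their calls without wound replicate 1 or 2, Mov10 also without skin replicate 1 or 2. With the replicate block Mov10 did not pass (adjusted p = 0.0567), and Tgtp2 did not with the mean of all probes (log2 0.91, adjusted p = 0.0822) or in the authors' deposited table (log2 0.85, adjusted p = 0.0938). Traf3 and Ube2l6 completed the list of higher genes with Il10rb.

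The decreases were larger. Gbp4, a further guanylate-binding protein, read -1.84, -2.14 and -0.82 in skin and -4.83, -5.29 and -4.27 in wound, where 2 of 3 arrays were well above background (9.18-fold lower, log2 -3.20, SE 0.20, limma adjusted p = 0.000142). Under normexp it was -1.68, as Irf4 was -1.14 and Slfn2 was 1.45, all with their calls kept. Gbp6 fell by 2.70 in log2, and Cd274, which encodes the T cell inhibitor PD-L1, fell by 2.42 (SE 0.23, limma adjusted p = 0.000624). Irf4, a transcription factor best known from lymphocytes, fell by 1.96 and the membrane protein Ifitm1 by 1.5. Socs3 and Socs1, inhibitors of Janus kinase signalling, fell by 1.95 (SE 0.17, limma adjusted p = 0.000399) and 1.04 (SE 0.17, limma adjusted p = 0.00501). Irf5, Nlrc5, Tlr3, Cmpk2, Herc6, Trim14 and Gm12250 were the other genes called lower. The Janus kinases did not pass the test, with differences of 0.27 for Jak1, 0.35 for Jak2 and -0.05 for Tyk2 (adjusted p = 0.21, 0.193 and 0.856).

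Markers of other cells were measured on the same arrays, as counts of calls and as the sum of linear signals over the array's 75th percentile. Over all genes tested limma called 18.5% higher in wound and 15.5% lower. At an unadjusted limma p under 0.05, 4035 of 16663 genes were higher and 3348 lower. A sum mainly follows its brightest markers. Among these were Csf3r for neutrophils, Siglech and Itgam for macrophages, Kdr for endothelium and, in wound, Trp63 for keratinocytes, none of which was called. Dim markers such as Mpo and Itgax add little to a sum. Of 6 leukocyte markers 4 were tested and none was called by limma, also at an unadjusted p under 0.05 (0 of 4). Cd53 was well above background on no array, and Ptprc, which encodes the CD45 of the sort, on 3 skin arrays and 1 wound array. The sum was 0.225 to 0.256 in skin and 0.328 to 0.394 in wound on design 026655, where the wound arrays lay above the skin arrays, and 0.727 in skin and 0.657 in wound on design 028005. Of 13 macrophage and dendritic cell markers, of which Mrc1 was on no array above background, 9 were tested, with 1 higher (Itgax, by 5.62 in log2, well above background on 1 of 3 skin arrays) and 2 lower (Csf1r at log2 -0.93 and Fcgr3 at -1.83). Their sums were 61.2 to 66.6 in skin and 52.3 to 82.5 in wound on design 026655, and 439 and 336 on design 028005. Of 6 neutrophil markers 3 were higher, Mpo at least 18.5-fold, S100a9 by 3.37 in log2 (well above background on 1 of 3 skin arrays) and Elane by 1.00, and S100a8 and Ly6g were lower (log2 -1.68 and -1.25). Their sums were 76.9 to 77.6 in skin and 63.5 to 106 in wound on design 026655, and 179 and 117 on design 028005. Of 8 T, NK and B cell markers 4 were tested and 1 was higher (Cd4, by 0.66), while 3 of the 4 were higher at an unadjusted p under 0.05. Klrb1c was on no array above background. The sums were 2.38 to 2.46 in skin and 3.15 to 3.22 in wound on design 026655, and 10.4 and 15.0 on design 028005, higher in wound on both. On design 028005 the brightest of these markers was Cd4 (log2 2.37 in skin and 3.42 in wound), while Cd3e read 1.88 and 1.34.

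Markers of skin and vessel cells were read in the same way, beside the same shares of all genes (18.5% higher and 15.5% lower). Of 8 keratinocyte markers 6 were lower in wound cells, Krt5 by 4.33 in log2, with sums of 15.9 to 35.6 in skin and 4.33 to 5.9 in wound on design 026655, and 30.8 and 10.1 on design 028005. Of 8 markers of mural cells, the contractile cells of vessel walls, 6 were higher, with sums of 19.4 to 20.4 in skin and 64.7 to 84.5 in wound on design 026655, and 44.2 and 174 on design 028005. Of 8 endothelial markers 7 were tested and 3 were higher. Their sums were 3.76 to 4.29 in skin and 6.26 to 6.63 in wound on design 026655, where the wound arrays lay above, and 16.8 and 14.8 on design 028005. Fibroblast markers were well above background on all arrays, 2 of 8 were lower, and sums were 1191 to 1202 in skin and 1016 to 1201 in wound on design 026655, and 4104 and 3352 on design 028005. The part of any of these cells in the differences of interferon response genes was not tested. Acta2, which drives the reporter and so checks the labels, was higher in wound by 4.71 in log2 (SE 0.16).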

How the data were processed

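Agilent arrays of 1 colour measured RNA of 6 samples. Per the file headers, the authors' scanner output gives a linear intensity for each spot from Feature Extraction 10.7.3.1, and the designs use build mm9. Per the series' design text, about 50 ng of RNA was amplified, and the authors' table was made with GeneSpring 14.5. Its log2 scale is not stated, and was taken from wound minus skin differences between its columns, which followed log2 scanner differences with slopes of 1.00, 1.00 and 0.974. Its columns have a 75th percentile of 0, and how its genes were centred is not stated in any label or header. Between 64.0% and 72.5% of spots were well above background, and 0 were saturated. The number of arrays limits the precision.

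Probes were named through the identifiers of the authors' table, otherwise through RefSeq accessions. Control and outlier-marked spots were left out. Processed signals were taken to log2 and set relative to the 75th percentile of their array, with the brightest probe of a gene on each design standing for it. Genes were tested if well above background on all 3 arrays of a group. The test was limma 3.58.1 (R 4.3.3) with array design, which is also slide and scan, as a term. Tables used Python 3.11.15 and pandas 2.3.3. Markers with no detected array in a group are given as at least N-fold, against a floor per array, set by the dimmest probe above background or, where higher, by the marker itself.

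Alternatives were the design term, the replicate number as a block, scaling, background correction, probe summary, detection filter, threshold, the authors' table, design 026655 alone and each array left out. The files hold median and no mean spot signals, so normexp (offset 50) used medians. The members, the other lists and the rule for named genes were chosen with earlier results of these data known. The rule gives all 6 values for up to 10 called members in each direction, the receptors and the transcription factors, a difference or detection for every member, and of the other pathway genes the 6 largest called in each direction and Jak1, Jak2, Tyk2, Socs1 and Socs3. A further gene that the rule names is not reported here. Other genes were named after their values were seen.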

Additional observations from a re-analysis of the deposited data

How the results depend on the processing

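Over 17 alternatives, 4 of the 24 called members kept their call in all (Oas1a, Oasl1, Rsad2 and Ifi44), 9 lost it only with no array design term (Ifnar1, Ifngr1, Irf1, Stat2, Ifit2, Mx2, Bst2, Gbp2 and Igtp) and 11 in other settings too. None of the 24 changed sign in any of them. Of the 17 alternatives, 1 is the main limma fit read at an adjusted p under 0.01. By their main p-value 14 of the 24 pass it and 10 miss it, so it is no separate check. With no array design term limma called 1745 genes, 4 members higher and 0 lower (5 and 6 at an unadjusted p under 0.05), and 2 and 5 of the other pathway genes. At an adjusted p under 0.01 the counts were 3189 genes, 7 and 7 members, and 4 and 8 other pathway genes. With no filter on dim probes 8 members and 4 other pathway genes were higher. Leaving out 1 array each gave 3743 to 5015 genes called, 7 to 9 members higher and 7 to 12 lower, and 4 to 9 other pathway genes higher. Of the 22 uncalled members, 8 passed in at least 1 alternative and 5 changed sign in at least 1. Averaging all probes gave 0.16 for Trim25 and -0.12 for Xaf1, and the authors' table gave 0.10 and -0.18. Trim25 ran from -0.38 to 0.087 with 1 array left out. Gbp5 passed in 3 alternatives, at -1.13, -1.07 and -0.67, and was 0.043 on design 026655 alone and -0.67 to 0.057 with 1 array left out, where Zbp1 ran from -0.27 to 0.40, Ifit3 from -0.19 to 0.60 and the pathway gene Tyk2 from -0.21 to 0.029. The members' median ran from -0.14 to 0.17. With the replicate block, 15 members were higher and 13 lower (5586 genes called), with Irf7, Usp18, Ifi35 and Psmb8 added (adjusted p = 0.0266, 0.0433, 0.0377 and 0.0251). Only 2 numbered pairs exist, and the differences between replicates 1 and 2 of the groups correlated at r = 0.153 over genes, so the numbers are not shown to pair samples. Where no cause is named, the cause was not tested.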

Other observations

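Most interferon ligands were at the limit of detection. The probes of Ifnb1, a type I interferon that many cells can make, and of Ifng, interferon gamma of lymphocytes, were well above background on 0 of 3 skin arrays and on 2 of 3 wound arrays, replicates 1 and 3 in both cases, and neither gene was tested. Probes of Ifne and Ifna4 were above background on no array, and that of Ifnk on 1 of 3 skin arrays and 0 of 3 wound arrays. Ifnl3, an interferon lambda, was tested and did not pass (log2 0.20).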
